A study of Homo sapiens with 24 samples.

Results

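H441 cells, a human lung adenocarcinoma line with mutant K-ras that depends on K-ras for survival, were compared with and without stable depletion of protein kinase C delta (PKCδ, gene PRKCD). The comparison rested on 6 of the 24 arrays of the study, chosen by their titles: 3 of cells that express the PKCδ shRNA δ193 and 3 of cells that express the scrambled shRNA δscr. The remaining arrays hold the same pair of shRNAs in H2009, a further K-ras dependent line, and in A549 and H460, which do not depend on K-ras, with 3 biological replicates per group and 8 groups in all. All cells carried an integrated lentiviral shRNA vector, had been selected for it, and grew in RPMI-1640 medium with serum, so the controls share the vector and the selection. A single PKCδ shRNA was profiled, so a change that comes with loss of PKCδ and one that comes with this hairpin cannot be told apart. The question was which transcripts change when PKCδ is lost from this line, and how far the 3 δ193 replicates, here called knockdown arrays 1, 2 and 3, did so alike.

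PKCδ belongs to the isoforms of protein kinase C that are switched on by diacylglycerol without a need for calcium. It takes part in both cell death and cell survival, and in tumors driven by K-ras it is known as a promoter of growth. Integrins, the receptors that tie cells to the extracellular matrix, have a place in the study as its candidate targets of PKCδ.

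Levels are the values after robust multiarray average (RMA) normalization on the log2 scale, on which a step of 1 is a 2-fold difference. A change is the mean of the 3 knockdown arrays minus the mean of the 3 scrambled arrays on that scale, given with its standard error. A gene is called lower or higher where limma gave an adjusted p under 0.05 over 18417 genes and the change was at least 0.32 in size. Over the 6 arrays the median of the gene means was 5.73, which serves as a reference for what is a low level, since no background level was measured. The array medians lay between 4.79 and 4.87. The number of arrays limits the precision.

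PRKCD itself was measured at 8.11, 7.71 and 7.76 in the scrambled arrays and at 5.69, 4.68 and 6.00 in knockdown arrays 1, 2 and 3. Every knockdown array lay well below every scrambled array, with the lowest level in array 2 and the highest in array 3. PRKCD fell by 2.40 on the log2 scale (standard error 0.29, 95% confidence interval -3.04 to -1.77, adjusted p = 0.00211), which is 5.29-fold. Its SD over the knockdown arrays was 0.69, against 0.22 over the scrambled arrays. The call held with any 1 of the 6 arrays left out, with changes of -2.68 to -2.01.

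Across all genes 271 were called lower, 1.47% of those tested, and 130 higher, 0.706%. Of these, 101 lower and 21 higher genes changed at least 2-fold. At an unadjusted p under 0.05 there were 2878 genes. The median change of all genes was 0.002, a value that RMA holds near 0 by setting the arrays to a shared distribution. The counts changed when 1 array was left out. Such a fit also has less power, so a lost call does not by itself show that a gene rests on that array. Without scrambled array 1, 2 or 3, the calls were 95 lower and 11 higher, 100 and 20, and 129 and 15, and without knockdown array 1 they were 120 and 24. They were 253 and 110 without knockdown array 2, and rose to 360 and 265 without knockdown array 3.

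FABP4, a carrier of fatty acids inside the cell, read 7.33, 7.51 and 6.75 in the scrambled arrays and 3.36, 3.26 and 2.90 in the knockdown arrays. Here the knockdown arrays stood close together, at levels near the bottom of the scale, and FABP4 fell by 4.02 (standard error 0.20, adjusted p = 2.23e-05). SPINK6, a Kazal-type inhibitor of kallikrein proteases, read 8.10, 8.35 and 7.77 against 5.10, 3.74 and 4.13. It fell by 3.75 (standard error 0.29, adjusted p = 0.000235), and knockdown array 1 kept the most of it. CPA4, a secreted carboxypeptidase, went from 7.71, 7.86 and 7.26 to 4.53, 3.91 and 4.25, a fall of 3.38 (standard error 0.20, adjusted p = 4.24e-05). LXN, latexin, an inhibitor of such carboxypeptidases, fell by 2.23 (standard error 0.28, adjusted p = 0.00267).

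OTULINL, a relative of the deubiquitinase OTULIN that lacks its activity, was even in the scrambled arrays, at 8.67, 8.68 and 8.60, and read 5.47, 5.03 and 6.11 in the knockdown arrays. It therefore followed the order of PRKCD, lowest in knockdown array 2 and highest in array 3. PI3, the elastase inhibitor elafin, fell by 2.60 (standard error 0.16) with knockdown arrays at 7.04, 7.15 and 6.76. SLPI, the related inhibitor of leukocyte proteases, was among the most abundant transcripts at 11.33, 11.39 and 11.02 and fell by 1.62 (standard error 0.20) to 9.71, 9.99 and 9.17. CP, the copper-carrying ferroxidase ceruloplasmin, fell by 2.31, SULF1, which trims sulfate from heparan sulfate, by 2.28, and MME, the membrane peptidase neprilysin, by 2.28. TMEM45A fell by 2.32. SUCNR1, the receptor for succinate, fell by 2.13 from an already low level of 5.42, 4.91 and 4.27. In none of these genes did the groups overlap, which holds for every called gene. All of the genes in this paragraph kept their call with any 1 array left out.

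**Figure D1:**
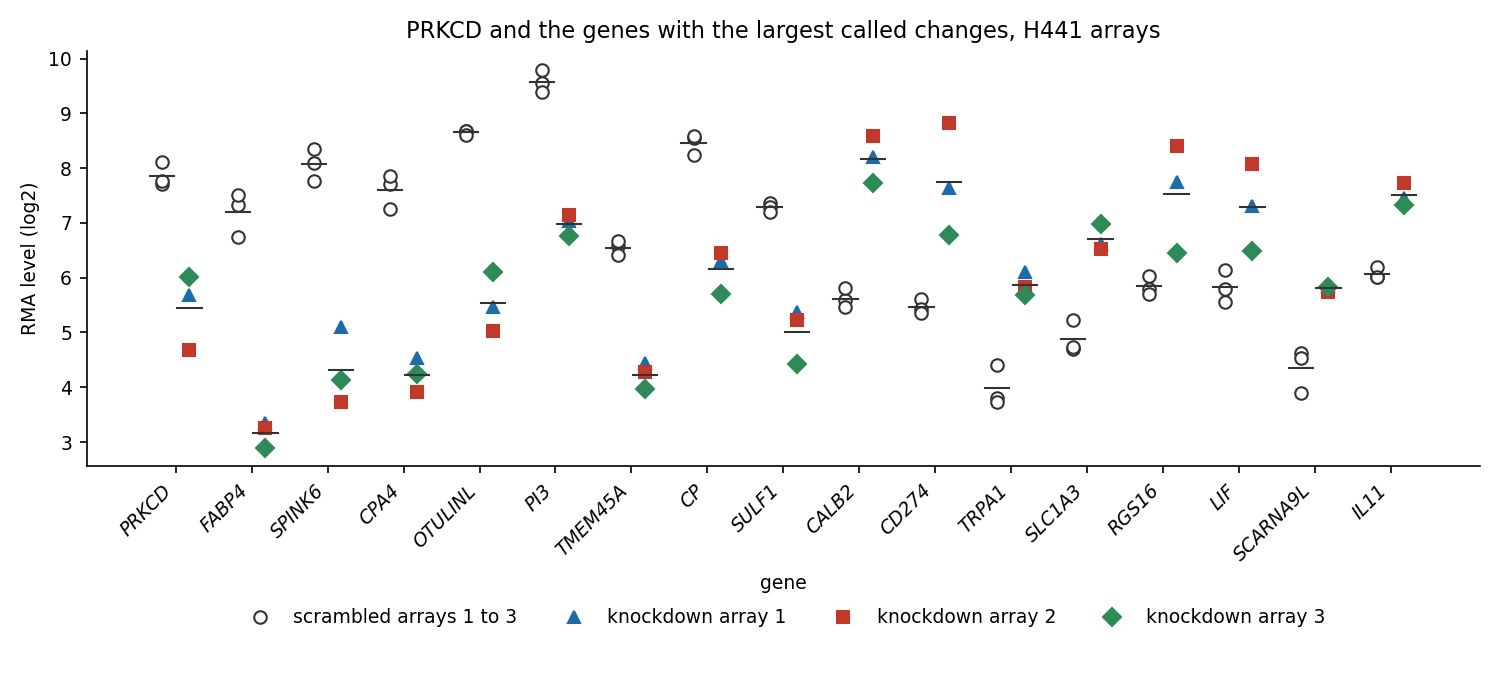
RMA level (log2, vertical axis) of PRKCD and of the genes with the largest called falls and rises (horizontal axis), with open circles for the 3 scrambled arrays, filled symbols for knockdown arrays 1, 2 and 3, and short lines at the group means. The knockdown symbols lie close together for FABP4 and SCARNA9L and far apart for CD274 and RGS16, where array 2 is highest and array 3 lowest.

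The genes that rose most were fewer, and several of them differed widely among the knockdown arrays. CALB2, the calcium buffer calretinin, went from 5.595, 5.81 and 5.46 to 8.20, 8.58 and 7.73, a rise of 2.55 (standard error 0.20, adjusted p = 0.000239). CD274, which encodes the immune checkpoint ligand PD-L1, went from 5.61, 5.42 and 5.35 to 7.64, 8.81 and 6.77. All knockdown arrays lay above all scrambled arrays, but array 2 stood 2.04 above array 3 in that gene. CD274 rose by 2.28 with a standard error of 0.39 (adjusted p = 0.0143), and the call was lost without any 1 scrambled array or without knockdown array 1, at an adjusted p of up to 0.0748.

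TRPA1, a calcium channel opened by irritant chemicals, rose by 1.89 (standard error 0.19) with even knockdown arrays at 6.10, 5.82 and 5.69. SLC1A3, a glutamate and aspartate transporter, rose by 1.82 (standard error 0.18), and SCARNA9L, a small RNA of the Cajal body, by 1.45 (standard error 0.19). IL11, a cytokine that signals through the receptor subunit gp130, read 6.02, 6.19 and 6.01 against 7.45, 7.73 and 7.34 and rose by 1.43 (standard error 0.14, adjusted p = 0.000858). Together with CALB2, these were the 5 of 27 named higher genes that kept their call whichever array was left out, against 28 of 53 named lower genes.

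LIF, a second gp130 cytokine, read 7.32, 8.08 and 6.50 in the knockdown arrays, all above the 6.15, 5.79 and 5.56 of the scrambled arrays, and rose by 1.47 (standard error 0.32, adjusted p = 0.0468). RGS16, which shuts off G-protein signals, rose by 1.69 (standard error 0.38, adjusted p = 0.0497), with array 2 at 8.41 and array 3 at 6.45. DDX60, a helicase of the antiviral response, rose by 1.43, TRIB3, a pseudokinase induced in the integrated stress response, by 1.29, TUBE1, epsilon tubulin, by 1.28, and NR4A1, an orphan nuclear receptor induced within minutes of stimulation, by 1.24. In all 6 of LIF, RGS16, DDX60, TRIB3, TUBE1 and NR4A1 knockdown array 2 was highest and array 3 lowest.

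Genes were then grouped by role in 20 lists, in which 990 genes were named. The lists were chosen with earlier results of these data known. The shares of called members therefore describe the lists and are not a test of them. Lysosomes are the acidic organelles in which hydrolases break down lipids, proteins and sugars. Of 44 measured lysosomal hydrolases and their activators, 8 were called lower and none higher, 18.2% against 1.47% of all genes. The median change of the group was -0.31 (0.002 over all genes), and 38 of the 44 had a mean below that of the scrambled arrays. GALC, which splits galactosylceramide, went from 7.87, 7.69 and 7.69 to 6.18, 6.22 and 6.10, with all knockdown arrays within 0.12 of each other, and fell by 1.58 (standard error 0.13, adjusted p = 0.000252). CTSH, a cathepsin that also processes surfactant protein, fell by 1.42, CTSS, a cathepsin of antigen processing, by 1.07, and SUMF1, which activates sulfatases, by 1.06. Over the whole lysosome list of 75 genes the 9 lower calls became 3 to 10 with 1 array left out, with 4 without scrambled array 1 or knockdown array 1 and 3 without scrambled array 2. The remaining hydrolases called lower were ASAH1 (-0.92), the acid ceramidase, FUCA1 (-0.82), which removes fucose, CTSD (-0.69), the aspartic cathepsin, and PLA2G15 (-0.60), a phospholipase. Of 31 genes listed as lysosomal membrane proteins and transporters, 1 was called lower (3.23%, against 1.47% of all genes) and none higher. Their median change was -0.235. The called gene was GM2A (-0.89), a soluble cofactor for ganglioside breakdown.

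Many lysosomal promoters carry an element, called CLEAR, that the transcription factor TFEB binds. Promoter windows of 300 bases, from 250 before to 50 after the start, were found in RefSeq (GRCh38.p14) for 14239 of the genes tested. The letters TCACGTGA, which read the same on both strands and contain the CACGTG that several other factors bind, were in the windows of 244 of these genes (1.71%). They were in 4 of 32 hydrolase genes (12.5%) and in 6 of 25 membrane protein genes (24%). They were also in 2 of 22 genes of DNA replication (9.09%), and in none of mitosis or of integrated stress and protein misfolding. A pair of these windows is shown in lower case with the element in capitals. The pair comes from lysosomal genes that hold the element and have a mean below that of the scrambled arrays. Neither gene was called lower, and a link between the element and the called falls was not tested. GNPTG, a subunit of the enzyme that tags hydrolases for the lysosome (change -0.77), is at chr16:1351888-1351955 on the plus strand, and ATP6V0D1, a subunit of the proton pump (change -0.49), at chr16:67481180-67481247 on the minus strand.
GNPTG: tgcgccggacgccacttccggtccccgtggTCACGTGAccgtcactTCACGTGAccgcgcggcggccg
ATP6V0D1: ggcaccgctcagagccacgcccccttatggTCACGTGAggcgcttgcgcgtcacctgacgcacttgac

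Complement proteins tag and lyse cells, and regulators on the cell surface hold them back. Of 11 measured complement components, 4 were called lower (36.4%), and of 7 regulators, 3 were (42.9%), against 1.47% of all genes. C3, the central component, was abundant at 11.31, 11.06 and 11.01 and fell by 1.20 (standard error 0.16, adjusted p = 0.00412) to 10.05, 10.10 and 9.64. C1R and C1S, the proteases of the first complex, fell by 1.05 and 1.04, and CFD, the protease that starts the alternative loop, by 1.12. Among the regulators, VTN, vitronectin, which also ties integrin αv to the matrix, went from 8.84, 8.72 and 8.60 to 6.67, 6.62 and 6.58, a fall of 2.09 (standard error 0.13, adjusted p = 4.24e-05). CFI, which cleaves C3b, fell by 0.82 and CD59, which blocks the lytic pore, by 0.68. The calls of CFD, CFI and CD59 were lost without scrambled array 1, scrambled array 2 or knockdown array 1. Those fits left VTN alone among the regulators. CFD and CD59 also lost theirs without scrambled array 3, CD59 without knockdown array 3 and CFI without knockdown array 2. C3, C1R, C1S and VTN kept theirs whichever array was left out. None of 30 coagulation and fibrinolysis genes was called. Since liver cells make most of these proteins, 10 hepatic markers were read beside them: none was called, and their levels in the scrambled arrays were 2.87 to 5.23, below the median gene.

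Integrins and their matrix ligands came next. Of 17 alpha and 8 beta subunits, ITGA6, ITGAV and ITGB5 were called lower and none higher, 11.8% of the alpha and 12.5% of the beta subunits against 1.47% of all genes. All 3 calls were lost without any 1 scrambled array, and those of ITGA6 and ITGB5 also without knockdown array 1, at an adjusted p of up to 0.164, 0.0721 and 0.158. ITGAV, the αv subunit, read 8.58, 8.55 and 8.48 against 7.82, 7.79 and 7.60, so the groups were each tight and apart, and it fell by 0.80 (standard error 0.13, adjusted p = 0.0111). ITGB5, a partner of αv, fell by 0.77, and ITGA6, which pairs in receptors for laminin, by 0.73. ITGB3, the β3 partner of αv, read 5.98, 6.18 and 5.69 against 5.21, 5.58 and 4.51. Its groups did not overlap, but knockdown array 3 lay 1.07 below array 2, and the change of -0.85 (standard error 0.24) did not pass (adjusted p = 0.105). ITGA3 (-1.16, adjusted p = 0.0504), ITGB4 (-0.99, 0.0692) and ITGA2 (-1.03, 0.137) had larger mean changes than ITGAV and did not pass either. In each of the 4 genes ITGB3, ITGA3, ITGB4 and ITGA2 knockdown array 3 was lowest and array 2 highest, and the SD over the knockdown arrays was 0.55 to 0.82, against 0.12 for ITGAV.

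Of 24 matrix ligands 6 were called lower (25%, against 1.47% of all genes) and 3 higher (12.5%, against 0.706%). Over the whole list of 71 integrin and adhesion genes the 11 lower and 4 higher calls became 3 lower without any 1 scrambled array and 6 without knockdown array 1, and 0 or 1 higher without any of these 4. COL12A1, a collagen that decorates fibrils, was even in the scrambled arrays at 7.64, 7.65 and 7.63 and fell by 1.33 (standard error 0.17). LAMB2 and LAMA4, laminin chains, fell by 1.40 and 0.91, and AGRN, agrin, and COL4A5, a basement membrane collagen, were also called lower, beside VTN above. RELN, reelin, a secreted glycoprotein best known from the brain, rose by 1.05, TNC, tenascin C, by 0.96, and NID2, a basement membrane linker, by 0.83. FN1, fibronectin, a matrix protein read with the mesenchymal genes, fell by 1.27 (standard error 0.15). Among adaptors FERMT2, a kindlin that activates integrins in epithelial and mesenchymal cells, fell by 0.83, while FERMT3, the kindlin known from blood cells, rose by 0.67. CAV1, caveolin, fell by 0.58.

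The labelled cell type was checked against its markers. The epithelial keratins KRT8 and KRT18 were among the highest values, at 11.98 to 12.05 and 11.88 to 12.10 in the scrambled arrays. Most of the lung lineage markers chosen for this check did not bear the label out. NKX2-1, the lung lineage factor, read 4.03 to 4.34, SFTPB, a surfactant protein, 3.95 to 4.06, and NAPSA, an aspartic protease of alveolar type II cells, 5.03 to 5.17, all below the median gene of 5.73. FOXA2 read 5.24 to 5.73, and FOXA1, at 6.97 to 7.38, was the only one above it. SFTPA1 and SFTPA2 were not analysed here, and a low level on these arrays is not a measure of absence. Scrambled means over the wider list of 35 lung lineage genes ran from 2.9 to 11.24. They reached 8.03 among its transcription factors and 8.5 among its surfactant and alveolar type II products. The arrays are therefore described by their title, H441, and as keratin-expressing cells. None of 32 epithelial state genes was called. CDH1, E-cadherin, read 6.59, 6.46 and 6.17 against 5.12, 5.98 and 4.52, with knockdown array 3 lowest, and its change of -1.20 (standard error 0.30) did not pass (adjusted p = 0.0676). VIM, which encodes vimentin, read 10.70 to 10.83 against 10.96 to 11.03 and did not pass (0.22, adjusted p = 0.443). Markers of leukocytes, of fibroblast and endothelial cells, and of liver, 39 genes in all, had no called member, and their summed level was 9.94 to 10.07 in the scrambled and 9.83 to 10.04 in the knockdown arrays.

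Of 35 genes of transforming growth factor beta and bone morphogenetic protein signaling, 3 were called lower and 1 higher, and of 60 cytokine and NF-κB genes 3 lower and 2 higher, against 1.47% and 0.706% of all genes. TGFBR2 and TGFBR3, receptors of the former, fell by 1.18 and 1.27, and ID2, a target that blocks differentiation factors, fell by 1.20, while BMP6, a ligand, rose by 0.92. IL6ST, which encodes gp130, the shared receptor subunit of IL11 and LIF, went from 8.47, 8.20 and 8.18 to 7.44, 7.61 and 7.56, a fall of 0.74 (standard error 0.14, adjusted p = 0.0224). TLR4, the receptor for endotoxin, fell by 0.66 and TNFAIP2, a gene induced by tumor necrosis factor, by 0.90. ERBB2, a receptor tyrosine kinase, fell by 0.77 and NR4A1 rose. They were the only called members of 67 ERK pathway genes, 1.49% in each direction, which for the lower call is close to the share of all genes. The ERBB2 call was lost without any 1 scrambled array or knockdown array 2 or 3. That of NR4A1 was lost without any 1 scrambled array or knockdown array 1. Without any 1 scrambled array or knockdown array 1, none of the cytokine and NF-κB genes was called lower by limma, and the lone BMP6 call was lost as well.

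Of 52 interferon-stimulated genes measured, 5 were called higher, 9.62% against 0.706% of all genes, and 1 lower. IFIT2, which binds viral RNA, rose by 1.15, RIGI, a sensor of viral RNA, by 1.08, OASL by 0.95 and IFI44 by 0.66, beside DDX60 above. The higher calls fell to 1 without scrambled array 1 or 2 and to 0 without scrambled array 3 or knockdown array 1, and the call of IFI44 was lost with any of the 6 arrays left out. SAMD9, an antiviral restriction factor, went the other way, from 6.57, 6.74 and 6.60 to 5.06, 4.48 and 5.53, a fall of 1.61 (standard error 0.23, adjusted p = 0.00508). The median change over the list was 0.01 (0.015), close to that of all genes, so the called members stood out of a list that did not shift. PVR, a ligand of T cell and natural killer cell receptors, rose by 0.66. It was, with CD274, the other checkpoint ligand called, of 12 (16.7%, against 0.706% of all genes). By limma, the PVR call was lost without any 1 scrambled array or knockdown array 1 or 2, at an adjusted p of up to 0.192. Neither ligand was called without any 1 scrambled array or knockdown array 1.

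Among 11 measured genes listed as protein kinase C or related kinases, PRKCD was lower and 9 were not called. PRKD1, the related protein kinase D1, was higher (0.59, standard error 0.12, limma adjusted p = 0.0386). By limma, the PRKD1 call was lost without any 1 scrambled array or knockdown array 1 or 2, at an adjusted p of up to 0.175. PRKCH, an isoform of the same calcium-independent class, read 7.22, 7.33 and 7.27 against 6.87, 6.72 and 6.46, with no overlap, and its change of -0.59 did not pass (adjusted p = 0.066). Among lipid genes PLIN2, the coat of lipid droplets, rose by 0.73 and SQLE, an enzyme of cholesterol synthesis, by 0.72. In stress and metabolism lists AKR1B10, an aldo-keto reductase induced by NRF2, fell by 1.22, ABCC3, an efflux pump, by 1.12 and CA12, a carbonic anhydrase, by 0.65, while OSGIN1 rose by 0.72 and HK2, the first enzyme of glycolysis, by 0.84. MMP2, a matrix protease, fell by 1.07 and PRSS23, a serine protease, by 1.09, so that with CPA4, PI3 and SLPI 5 of 53 proteases and inhibitors were called lower (9.43%, against 1.47% of all genes) and none higher. Of 35 genes of the lung epithelial lineage 4 were called lower, 11.4% against 1.47% of all genes. AQP3, a water and glycerol channel, fell by 1.23 and BPIFB1, a secreted airway protein, by 0.79, beside SLPI and CTSH above. COL5A2, a fibrillar collagen, fell by 0.61 and was, with FN1, called lower of 34 mesenchymal genes (5.88%). Of 27 p53 targets PLK2 (-0.75) and ZMAT3 (-0.95) were called lower (7.41%). Of 31 apoptosis genes BMF (-0.70), a BH3-only protein set free when cells detach, was called lower, 3.23% against 1.47% of all genes. The calls of PLIN2, SQLE, CA12, COL5A2, PLK2, BMF, ABCC3, OSGIN1, HK2 and BPIFB1 were lost without any 1 scrambled array or knockdown array 1. Those of PLIN2, CA12, COL5A2, PLK2 and BMF were also lost without knockdown array 2, and that of SQLE without knockdown array 3. Those of MMP2 and PRSS23 were lost without scrambled array 1 or 2 or knockdown array 1, and that of ZMAT3 without any 1 scrambled array. AKR1B10 and AQP3 kept theirs whichever array was left out.

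The knockdown arrays differed from each other more than the arrays of any other group in the study. The median SD over genes within the group was 0.185, against 0.141 (0.1405) in the scrambled H441 arrays and 0.079 to 0.108 in the 6 groups of the other lines. The ratio of the knockdown median SD to the scrambled median SD was 1.32 in H441. Gene by gene, the knockdown SD was the larger in 11451 genes (62.2%). An SD above 1 was found for 31 genes in the knockdown arrays, for none in the scrambled H441 arrays and for at most 10 in another group. Correlations across genes between knockdown arrays were 0.9901 for arrays 1 and 2, 0.988 for 1 and 3 and 0.9819 for 2 and 3, against 0.9918 or more between replicates everywhere else. With knockdown array 3 left out the ratio of the median SDs was 0.94, with array 2 left out 1.06 and with array 1 left out 1.24. There the knockdown SD came from 2 arrays and the scrambled SD from 3. An SD over 2 arrays tends to be lower than one over 3, so these values are read against each other and not against 1.32.

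**Figure D2:**
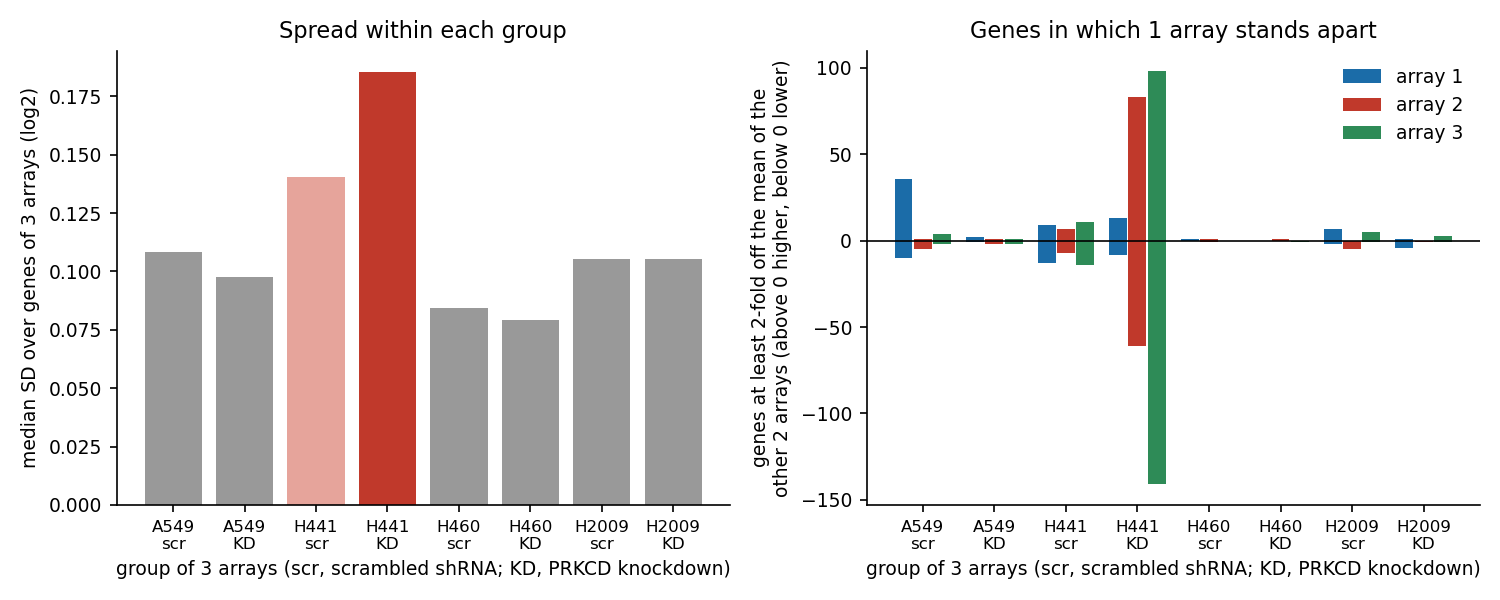
Left, median over genes of the SD of the 3 arrays of each group (log2, bars from 0). Right, number of genes in which each array lies at least 2-fold above (bars up) or below (bars down) the mean of the other 2 arrays of its group. Knockdown arrays 2 and 3 of H441 have 83 and 61, and 98 and 141 such genes, and no array of another group has more than 36 in 1 direction.

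The spread had a direction. Between knockdown arrays 2 and 3, 488 genes differed at least 2-fold, 230 higher in array 2 and 258 higher in array 3, and in 465 of them (95.3%) array 1 lay between the other two. Arrays 1 and 2 differed at least 2-fold in 85 genes and arrays 1 and 3 in 166, and there the remaining array lay between in 52.9% and 42.8%. Against the scrambled mean, array 2 was at least 2-fold higher in 157 genes and lower in 172, array 3 in 76 and 206, and array 1 in 80 and 122. All 3 knockdown arrays were at least 2-fold lower in 66 genes but at least 2-fold higher in 6. Departures of that size in opposite directions occurred in 3 genes.

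Proliferation genes separated knockdown arrays 2 and 3 without exception. All 26 genes of DNA replication and all 26 of mitosis that were measured were lower in array 2 than in array 3, where 51.3% of all genes were. For replication, the median departure from the scrambled arrays was -0.05 in array 1, -0.54 in array 2 and 0.47 in array 3. All 26 lay below the scrambled mean in array 2, all 26 lay above it in array 3, and array 1 fell between the others in all 26. The mean change therefore told little: its median over the list was 0.01 (0.006), it ran from -0.43 to 0.29, and none of the 52 genes was called. In bulk RNA, fewer cells in a phase of the cycle and less RNA per cell cannot be told apart.

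ORC1, a subunit of the complex that marks replication origins, read 6.94, 7.04 and 7.18 in the scrambled arrays and 7.08, 6.27 and 8.24 in knockdown arrays 1, 2 and 3. CCNE2, cyclin E2, which opens S phase, read 6.39, 6.90 and 6.85 against 6.12, 5.46 and 7.38. In both genes array 2 lay below every scrambled array and array 3 above every one. CDC6, which loads the replicative helicase, read 9.35, 8.58 and 10.09, and PCNA, the sliding clamp, 10.27, 9.62 and 10.75. Among mitotic genes KIF11, the spindle motor, read 8.25, 7.74 and 8.97, FOXM1, the factor that drives mitotic genes, 7.81, 7.29 and 8.53, and MKI67, the proliferation marker Ki-67, 7.49, 6.94 and 7.90. The median departure of the mitotic genes was 0.00 (-0.003) in array 1, -0.23 (-0.229) in array 2 and 0.48 in array 3.

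Promoters of these genes hold short elements that are well known from the cell cycle. Replication genes carry sites for E2F factors. The letters TTTCCCGC, TTTGGCGC, TTTCGCGC or TTTGCCGC, on either strand, were in the windows of 15 of 22 replication genes (68.2%), of 2 of 20 mitotic genes (10%) and of 784 of all 14239 genes (5.51%). Mitotic genes carry the cell cycle homology region. Its core TTTGAA, on either strand, was in 14 of 20 mitotic genes (70%), in 1 of 22 replication genes (4.55%) and in 2240 of all genes (15.7%). The windows that follow show up to 30 bases on either side of the element, in capitals. These windows come from 3 genes of each list that hold the element and have a wide gap between arrays 2 and 3. They lie at chr20:25407648-25407715 plus strand (GINS1), chr16:85688948-85689015 minus strand (GINS2), chr17:40287856-40287923 plus strand (CDC6), chr10:92593072-92593137 plus strand (KIF11), chr10:128126435-128126500 minus strand (MKI67) and chr1:214603205-214603244 plus strand (CENPF).
GINS1: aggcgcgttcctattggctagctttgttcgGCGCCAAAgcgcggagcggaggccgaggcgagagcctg
GINS2: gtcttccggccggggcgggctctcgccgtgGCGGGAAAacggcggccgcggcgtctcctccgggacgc
CDC6: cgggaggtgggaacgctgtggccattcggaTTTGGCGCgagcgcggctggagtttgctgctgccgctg
KIF11: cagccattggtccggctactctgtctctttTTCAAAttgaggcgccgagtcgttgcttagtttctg
MKI67: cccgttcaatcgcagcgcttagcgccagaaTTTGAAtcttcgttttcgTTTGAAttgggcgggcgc
CENPF: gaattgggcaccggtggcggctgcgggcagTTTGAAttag

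Array 3 was above array 2 by 1.51 in each of GINS1, GINS2 and CDC6, by 1.23 in KIF11, by 0.96 in MKI67 and by 0.91 in CENPF. GINS1 and GINS2 are subunits of the helicase that opens DNA at the fork, and CENPF binds kinetochores. The share of promoters with an element describes these windows and does not say which factor acted in the cells.

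Genes of the integrated stress response and of protein misfolding ran the other way. Cells switch these on when amino acids run short or proteins misfold, through the factors ATF4 and CHOP. Of 28 measured genes, 20 were higher in array 2 than in array 3 (71.4%, against 48.6% of all genes), 12 of them at least 2-fold and none in the other direction. The median departure from the scrambled arrays was 0.55 in array 1, 0.82 in array 2 and 0.06 in array 3. DDIT3, which encodes CHOP, read 6.50, 6.78 and 6.47 in the scrambled arrays and 9.28, 10.05 and 7.13 in the knockdown arrays. All knockdown arrays were higher, and the change of 2.24 was among the largest on the arrays, but with an SD of 1.51 it did not pass (standard error 0.56, adjusted p = 0.0683). CHAC1, which breaks down glutathione and is induced by ATF4, read 9.24, 9.17 and 6.51 against 6.90, 6.44 and 6.35, so knockdown array 3 lay among the scrambled arrays, and it did not pass (1.74, adjusted p = 0.158).

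ASNS, asparagine synthetase, read 9.75, 10.21 and 8.49 against 8.41, 8.36 and 8.36. PSAT1 and PHGDH, enzymes of serine synthesis, had the same pattern, with array 3 at 9.96 and 10.47 beside scrambled arrays of up to 9.95 and 10.46, and arrays 1 and 2 at 10.77 and 10.80, and at 11.20 and 11.21. TRIB3, at 9.50, 9.80 and 8.52 against 7.87, 8.09 and 8.003, was the only member called. Chaperones of the endoplasmic reticulum did not follow: HSPA5 read 11.57, 11.61 and 11.65 against 11.53, 11.40 and 11.44, and HSP90B1 lay between 11.26 and 11.50 in every array.

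ATF4 and its partners bind a composite element, searched here as TGATGNAA on either strand. It was in the windows of 4 of 24 genes of the list (16.7%) and of 511 of all genes (3.59%). It was also in 3 of 25 lysosomal membrane protein genes (12%), in 1 of 32 hydrolase genes (3.12%) and in none of the replication or mitotic genes. Windows of 3 genes of the stress list that hold it and have a wide gap between arrays 2 and 3 follow, with the element in capitals. They are CHAC1 at chr15:40953232-40953299 plus strand, ASNS at chr7:97872439-97872506 minus strand and HERPUD1, which takes part in clearing misfolded proteins, at chr16:56931936-56932003 plus strand.
CHAC1: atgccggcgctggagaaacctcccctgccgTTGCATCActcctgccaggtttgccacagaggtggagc
ASNS: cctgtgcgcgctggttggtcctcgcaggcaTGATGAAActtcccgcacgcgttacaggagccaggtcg
HERPUD1: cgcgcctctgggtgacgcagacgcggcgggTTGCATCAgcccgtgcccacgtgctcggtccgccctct

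IL6, the acute-phase cytokine, had the largest SD of any gene over the knockdown arrays, 1.78, at 8.83, 10.15 and 6.63 against 7.51, 7.04 and 6.62 in the scrambled arrays. IL1A and IL1B, the interleukin-1 cytokines, read 9.13, 9.90 and 6.83, and 9.90, 10.47 and 7.70, against 8.41 to 9.03 and 8.81 to 9.26. For IL1A and IL1B array 2 was above and array 3 below every scrambled array, so that the mean changes of -0.17 and 0.36 (adjusted p = 0.939 and 0.828) describe neither. CXCL8, the neutrophil chemokine interleukin-8, read 10.45, 11.10 and 8.61 against 9.94, 9.71 and 9.24, and CCL20, which draws CCR6-bearing cells, 5.04, 6.26 and 4.0 against 3.57, 4.17 and 4.07.

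Of 14 interleukin and growth cytokines, 12 were higher in array 2 than in array 3, as were 13 of 16 chemokines and 12 of 13 NF-κB subunits and feedback genes. In the last list the median departure was 0.02 in array 1, 0.34 in array 2 and -0.41 in array 3. TNFAIP3, the feedback inhibitor A20, read 6.37, 7.77 and 5.99 against 6.82 to 6.91, and NFKBIZ 5.71, 6.93 and 5.28 against 5.69 to 5.83. RELA, the p65 subunit, stayed between 6.76 and 7.36 in all 6 arrays.

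Growth-factor response genes were spread alike. EGR1, an immediate early factor, read 7.08, 9.25 and 6.33 against 6.15 to 6.47, so that array 2 alone stood far above the rest. ERRFI1, a feedback inhibitor of the EGF receptor, read 8.31, 9.40 and 6.63 against 7.36 to 7.70, and KLF4, a differentiation factor, 6.63, 7.44 and 5.86 against 5.16 to 5.56. Of 25 immediate early and ERK target genes, 20 were higher in array 2 than in array 3, with median departures of 0.25, 0.42 and 0.09 in arrays 1, 2 and 3. MYC read 11.24, 11.03 and 10.68 against 10.27 to 10.37, above the scrambled arrays in every knockdown array, and did not pass (0.65, adjusted p = 0.065).

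The other genes with the largest SD over the knockdown arrays were TXNIP, an inhibitor of thioredoxin, at 10.19, 11.40 and 8.46 against 10.26 to 10.68, SERPINB3, a serpin whose near-identical neighbor, SERPINB4, may share its probes, at 5.47, 6.53 and 3.47 against 3.74 to 4.68, and SNORD14E, a small nucleolar RNA, at 5.19, 3.23 and 5.85 against 3.57 to 3.64. SNORD14E was the only one of the 10 with array 2 lowest. Cholesterol synthesis also split the arrays: 15 of 18 genes were higher in array 3 than in array 2, and the median departures were 0.10 in array 1, -0.16 in array 2 and 0.41 in array 3. HMGCS1, the entry enzyme, read 7.82, 7.71 and 8.50, and IDI1 8.37, 8.16 and 9.11.

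**Figure D3:**
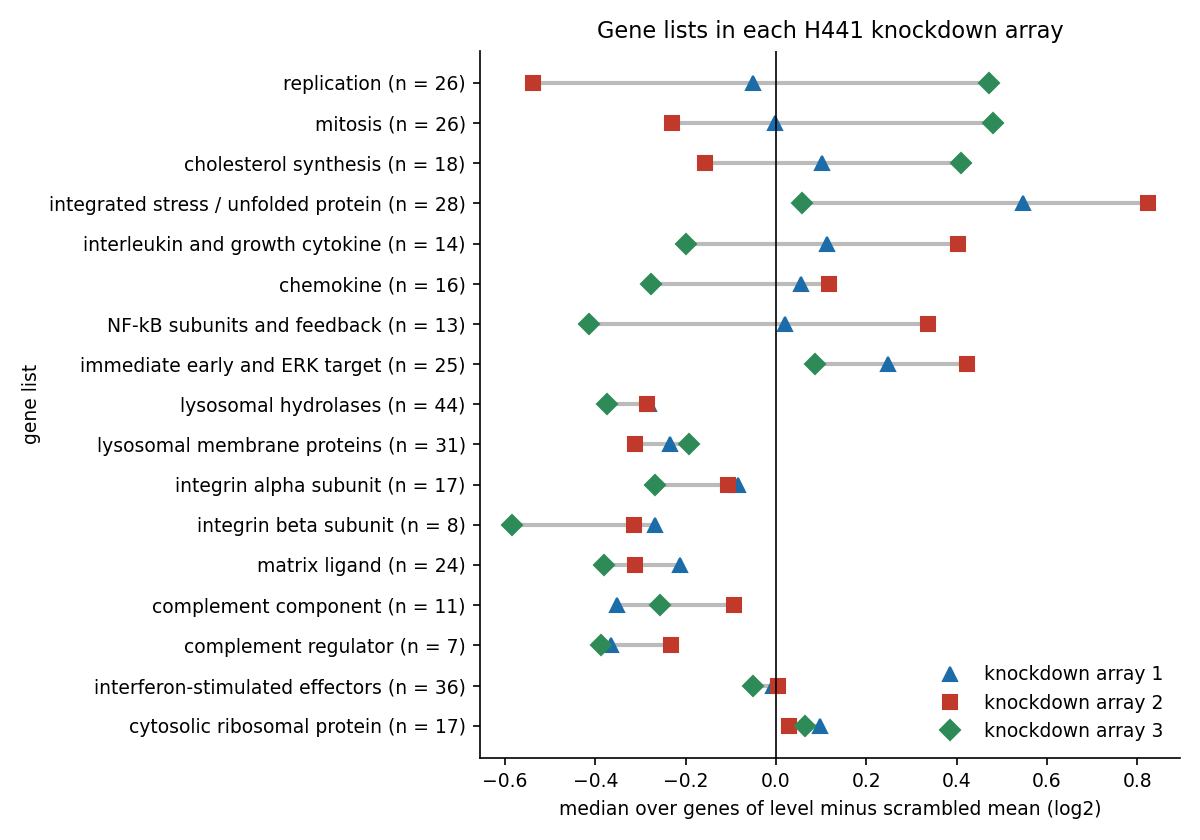
Median over the genes of each list (vertical axis, number of genes in brackets) of the level minus the mean of the 3 scrambled arrays (log2, horizontal axis), with 1 symbol for each of the 3 knockdown arrays. Replication, mitosis and cholesterol synthesis run from array 2 on the left to array 3 on the right, stress and cytokine lists run the other way, and the lysosomal, integrin, matrix and complement lists lie left of 0 in all 3 arrays.

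These lists separated the arrays of no other group as far. The range of the replication median over the 3 arrays, each taken against its own group's mean, was 1.12 in the H441 knockdown and at most 0.13 in the 7 other groups. For mitosis it was 0.63 and at most 0.11, for the genes of integrated stress and protein misfolding 0.77 and at most 0.09, for NF-κB subunits and feedback genes 0.77 and at most 0.18, and for chemokines 0.45 and at most 0.22. Genes read as signs of RNA quality moved less. Cytosolic ribosomal proteins had median departures from the scrambled arrays of 0.097, 0.028 and 0.065 in knockdown arrays 1, 2 and 3, with a range against the group's own mean of 0.02, at most 0.08 elsewhere. The range was 0.19 for nuclear-encoded respiratory chain genes, against at most 0.05 in the other groups, and 0.15 for housekeeping genes, against at most 0.11. The part of RNA quality in the spread was not tested. PRKCD had the same order as the proliferation genes, lowest in array 2, then array 1, then array 3, but 3 arrays give no test of that relation, and the part of PRKCD in the spread was not tested. The sources used here do not give extraction or scan batches, so culture and batch cannot be told apart.

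**Figure D4:**
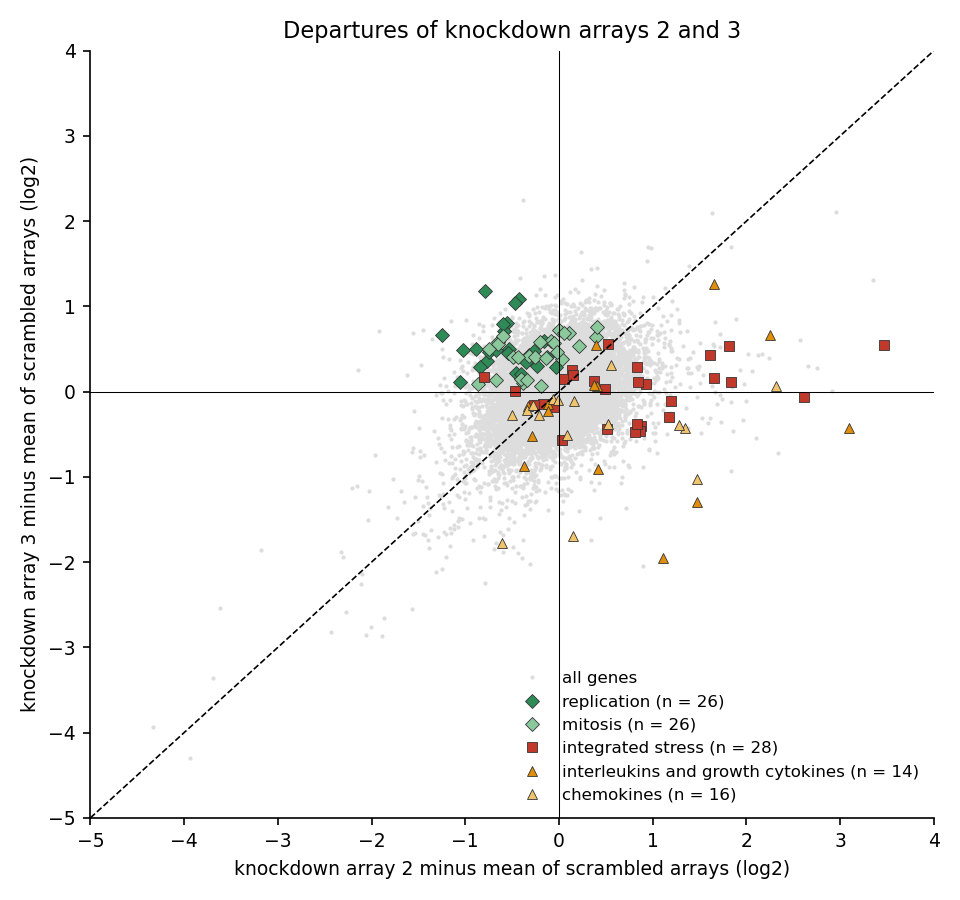
Level minus the mean of the scrambled arrays (log2) in knockdown array 2 (horizontal axis) and knockdown array 3 (vertical axis), with 1 point per gene, grey for all 18417 genes, and a dashed line where the arrays are equal. All 52 replication and mitosis genes lie above the line, and most stress and cytokine genes below it, while the genes with the deepest falls lie at the lower left, some of them, such as PRKCD, clearly off the line.

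The test divides a change by its spread, so large changes with a wide spread are not called. Of genes with a mean change of at least 2-fold, 12 lower and 26 higher ones were not called, and their median SD over the knockdown arrays was 0.68 (0.681) and 0.99, against 0.18 (0.176) and 0.17 (0.172) for the genes called lower and higher. All 401 called genes had groups that did not overlap, and the median standard error of their changes was 0.145 (0.145). Among the 271 called lower genes knockdown array 3 was lowest in 119, array 2 in 88 and array 1 in 64. A fit in which all 24 arrays share 1 estimate of the spread called 2636 genes in H441, 1330 lower and 1306 higher, 400 of the 401 among them. Its additions with the largest changes were DDIT3, CHAC1 and OSM, the cytokine oncostatin M, which read 7.04, 7.52 and 5.16 against 4.72 to 4.94 (1.71, adjusted p = 0.0883 in the 6 arrays). In OSM, DDIT3 and CHAC1 knockdown array 3 lay near the scrambled arrays and arrays 1 and 2 far above them.

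To ask which changes set H441 apart, its change was compared with the mean change of A549, H460 and H2009, in a fit of all 24 arrays with 1 variance for each group. By limma, the change in H441 lay below that of the others for 242 genes, 1.31% of those tested, and above it for 154, 0.836%. PRKCD was not among them (difference -0.56, standard error 0.23, adjusted p = 0.278), with changes of -1.26 in A549, -2.03 in H460 and -2.25 in H2009. The number of genes that differed was 50 without knockdown array 1 and 239 without scrambled array 1, against 396 with all arrays.

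CPA4 fell by 3.38 in H441 while its changes were -0.05 in A549, -0.18 in H460 and -0.24 in H2009 (difference -3.22, standard error 0.28, adjusted p = 8.73e-07). FABP4 differed by as much from the mean of the other lines (-3.24), but it had also a change of -2.29 in H460, beside 0.10 in A549 and -0.16 in H2009. SPINK6 and OTULINL likewise had their next largest changes in H460, at -2.35 and -2.96. MME (-0.20, -0.03 and 0.16) and TMEM45A (-0.21, -0.01 and -0.31) had small changes in A549, H460 and H2009, and so did VTN (0.23, -0.18 and -0.16), whose difference was -2.06 (standard error 0.21, adjusted p = 4.9e-06).

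Among higher genes RGS16, LIF and DDX60 had small changes in the other lines, at most 0.42, while CALB2 changed by 1.46 and CD274 by 1.81 in H460. TRPA1 changed by 1.92 in H2009, as much as in H441. Its difference from the mean change of the other lines did not pass after adjustment (0.72, standard error 0.30, adjusted p = 0.257). For ITGAV the difference was -0.49 (adjusted p = 0.0642), so that its lower level in H441 was not shown to differ from the mean change of the other lines, whereas ITGA6 (-0.68, adjusted p = 0.0209), ITGB5 (-0.58, 0.0234), ITGA3 (-0.90, 0.0101) and ITGB4 (-0.98, 0.0179) passed that test.

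**Figure D5:**
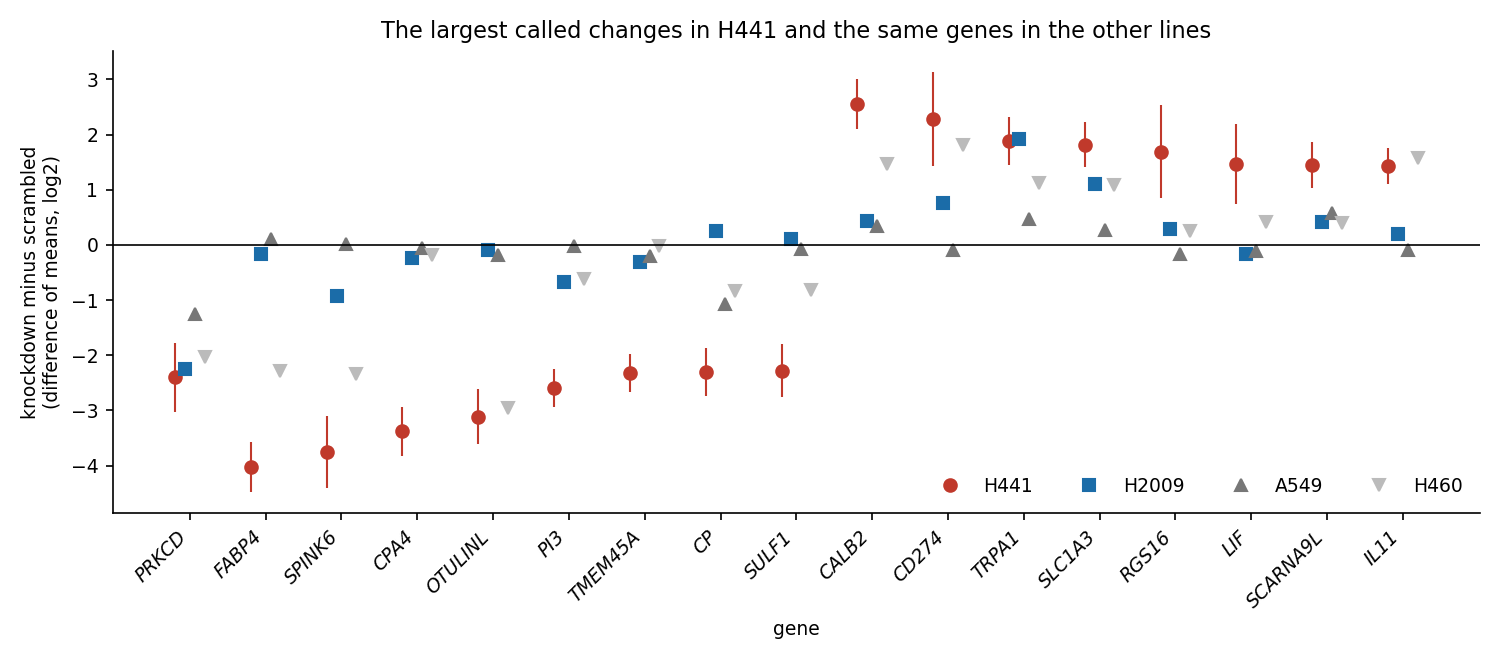
Change with δ193 (knockdown minus scrambled, log2, vertical axis) of PRKCD and the genes with the largest called changes in H441 (horizontal axis), in each of the 4 lines, with 95% confidence intervals for H441 from the fit of its own 6 arrays. CPA4 and TMEM45A have a low H441 point with the other lines near 0, while FABP4, SPINK6 and OTULINL have a second low point in H460.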

How the data were processed

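RNA from 24 samples was hybridised to Affymetrix Human Gene 1.0 ST arrays, and the authors summarised the scans with robust multiarray average (RMA) in Affymetrix Power Tools, with no version given in the sources used here. The deposited values are on the log2 scale, so probe signals, background and scan dates were not analysed here. RMA sets all arrays to a shared distribution, which leaves relative changes only.

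Of 33252 probe clusters, 19460 carried 1 gene symbol, 1754 several and 12038 none. For 769 genes with over 1 cluster the cluster with the highest mean was used, which left 18417 genes. The 6 H441 arrays were fitted with limma 3.58.1 in R 4.3.3 (lmFit and eBayes), with Benjamini-Hochberg adjustment over all genes. The comparison between lines used all 24 arrays with array weights of 1 variance per group. The code was tested on simulated data. Samples were grouped by title, and the replicates are separate cultures per the study's methods.

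Named are PRKCD, the 12 largest called changes in each direction, up to 4 called members in each direction of each of 58 roles in 20 lists, the integrin and PKC families, the 10 genes with the largest SD over the knockdown arrays, the 5 called genes in each direction that differ most from the other lines, and up to 3 genes called only with all arrays. Other list members given as examples were picked after their values were seen. The members and lists were chosen with earlier results of these data known. Of the lists, proliferation, epithelial state, other cell types, and RNA and array signs (42 genes) had 0 called members by limma. Alternatives covered the samples in the fit, weights, test, normalization, filters, thresholds, the replicate block and leaving out each array.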

Additional observations from a re-analysis of the deposited data

Results flagged for a closer look

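By a limma contrast, 396 genes changed in H441 by an amount that differed from the mean change of A549, H460 and H2009. Differences are given on the log2 scale, as the H441 change minus that mean. Among the genes named for the largest falls, the difference was -3.243 for FABP4, -3.222 for CPA4, -2.666 for SPINK6 and -2.254 for MME. It was -2.159 for PI3, -2.14 for TMEM45A, -2.036 for OTULINL and -2.021 for SULF1. It was -1.989 for LXN, -1.952 for SUCNR1 and -1.751 for CP. Among the genes named for the largest rises, it was 1.803 for CALB2, 1.562 for RGS16, 1.458 for CD274 and 1.418 for LIF. It was 1.388 for DDX60, 1.064 for TUBE1, 1.002 for SLC1A3, 0.967 for NR4A1, 0.877 for TRIB3 and 0.87 for IL11. Several of these genes also changed in H460, and IL11 changed there by 1.58, against 1.43 in H441.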

How the results depend on the processing

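The 271 lower and 130 higher calls became 1330 and 1306 with 1 spread for all 24 arrays, 519 and 414 with 1 variance per group, and 776 and 621 with array weights within the 6 arrays. The test named in the study's methods gave 966 and 832 unadjusted, and 1 and 0 with Benjamini-Hochberg adjustment, where PRKCD (-2.403) no longer passed. Higher calls were 217 with a trended and robust prior and 224 among genes above the median mean. Leaving out 1 array gave 95 to 360 lower and 11 to 265 higher calls. Setting array medians equal, quantile normalization, cyclic loess, averaging clusters, a 1.5-fold threshold or no fold threshold kept both counts within 1.5 times.

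The 396 genes that differed from the other lines became 1681 with 1 spread, 2006 with 1 weight per array, 876 against A549 alone, and 50 (without knockdown array 1) to 570 (without knockdown array 3) with 1 array left out. The ratio of the median SDs was 1.657 among genes above the median mean. It was 0.94 to 1.237 with a knockdown array left out and 1.61 to 1.672 with a scrambled array left out. There 1 group's SD came from 2 arrays, which tends to lower it, so these ratios are not read against the one from all arrays. IL1A changed sign with array weights (0.19). With 1 array left out, IL1A ran from -0.806 to 0.729 and TXNIP from -1.183 to 0.289, both positive without knockdown array 3, while IL1B ran from -0.193 to 1.191 and ERRFI1 from -0.097 to 1.288, both negative without knockdown array 2. The cause was not tested.

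With a replicate block the calls were 296 lower and 162 higher, and 337 genes differed from the other lines. Deviations of same-numbered scrambled and knockdown arrays correlated at 0.068, 0.012 and 0.098, and not every array correlated best with its own number, so the arrays share a number only. Of 90 other named genes, the block moved 6 out of and 3 into the calls.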

Other observations

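Some called genes lie outside the rule for named genes and were picked after their values were seen. ALDH1A1, which makes retinoic acid, fell by 1.56, S100A4, a calcium-binding protein of motile cells, by 1.51 (limma, adjusted p = 0.000783), and ABCA1, which exports cholesterol, fell by 1.34. MSLN, mesothelin, fell by 1.28 and SCNN1A, a subunit of the epithelial sodium channel, by 1.27. SPHK1, which makes sphingosine phosphate, rose by 1.10 (adjusted p = 0.00738), and TEAD4 and AJUBA, a transcription factor and a scaffold of the Hippo pathway, rose by 0.78 and 0.73.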
